A study of Mus musculus with 22 samples.

Results

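The genes described here encode the connective framework, the blood vessel lining and the contractile cells of the spleen. Of 40 listed genes, 38 had a probe on the array, among 19057 named genes in all, and Col6a3 and Fbn1 are not analysed here. Each gene was read from 1 probe, the one with the highest mean over 22 arrays, and a gene belongs to the list by its name. RNA of whole spleen was measured in 22 mice, 1 bead array per mouse, and all levels below are deposited log2 intensities, so a difference of 1 is a doubling. Of the 38 genes, 37 passed the filter on dim probes and Postn, the gene of periostin, did not.

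A spleen is held together by a capsule, by trabeculae rich in fibrillar collagen, and by a fine reticular meshwork that fibroblastic reticular cells make and wrap around. Its vessels rest on basement membranes, sheets of type IV collagen, laminin and nidogen, and its venous sinuses are lined by endothelium that lymphocytes and red cells cross. Contractile cells that carry smooth muscle actin lie in the capsule, the trabeculae and the vessel walls.

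All 22 mice carried a cyclin D1 transgene and all received sheep red blood cells (SRBC). Bim, a protein that promotes cell death and is encoded by Bcl2l11, was deleted in B cells of 14 of them. By histopathology 7 of these 14 had developed disease, given in the labels as MCL, and 7 had not. The remaining 8 mice carried the transgene alone, with Bim intact, where the series' description speaks of 7. Within each group mice were given SRBC alone every week (8 mice in all), SRBC with irradiation (9 mice) or SRBC with pristane (5 mice), an oil injected to provoke inflammation. Mice are named below by stimulus and number, A for SRBC alone, I for irradiation and P for pristane. The diseased group held 3 A, 3 I and 1 P, the non-diseased group 2 A, 3 I and 2 P, and the transgene-only group 3 A, 3 I and 2 P. The sources used here do not give the age, sex or strain of the mice, the promoter of the transgene or the way Bim was deleted. The brightest of the Bcl2l11 probes read 8.35 ± 0.49 (SD, n = 7) in diseased, 7.79 ± 0.12 (n = 7) in non-diseased and 8.23 ± 0.23 (n = 8) in transgene-only spleens, and since the position of the probe against the deleted part is not given, this checks nothing.

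Among the arrays 2 stood apart, both of transgene-only mice given pristane. In the transgene-only mouse P_1 the mean level of 6 erythroid markers was 7.08, against 8.92 to 12.01 in the other 21 mice, and 4 of the 6 lay below the level taken here as low signal, 6.61. Alas2, the first enzyme of haem synthesis in red cell precursors, read 6.54 there and 10.08 to 13.33 elsewhere. Neutrophil markers averaged 7.17 against 8.76 to 12.28, while B cell markers averaged 9.43, within the range of the others. Of the 37 genes, 10 had their highest level of all 22 mice on this array, among them Lum, Col6a1, Fn1, Dcn, Mgp and Col15a1. The mean level of 9 macrophage markers was 8.97, against 9.10 to 10.16 in the other mice. Of these 9, 4 had their lowest level of all mice there, among them Slc40a1, at 8.47 against 11.55 to 12.64. By contrast C1qa, C1qb, C1qc and Mertk lay within the range of the other mice and above their median. Endothelial genes went both ways on this array. Lyve1 read 7.815 against 6.51 to 6.85, and Mmrn2 8.33 against 7.54 to 8.30. Tek, at 6.95 against 7.11 to 7.99, lay below all other mice, as did Stab2, Ptprb, Esam and Flt4. The other endothelial genes read lay within the range of the other mice. The lymphoid stroma genes Ccl21a and Cxcl13, at 12.88 and 12.11, lay above all other mice, while Ccl19, at 10.87, did not. Whether this RNA came from a spleen like the others was not tested. The transgene-only mouse P_2 lay at the other end: its erythroid mean level, 12.01, and megakaryocyte mean level, 10.12, were the highest of all mice, and its B cell and T cell mean levels, 7.97 and 7.73, the lowest. Its median correlation with the other arrays, 0.953, was also the lowest of the 22, against 0.967 for P_1. Called results that draw on these mice are given with and without P_1, and without P_2 where that moves the call.

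Levels of single genes differed widely between mice for some members and hardly for others. Of the 37 genes, 31 had a mean above the low-signal level, and the other 6 (Col1a2, Col3a1, Col5a2, Lama4, Sparcl1 and Kdr) had a mean at or under it, where differences are compressed. Lum is counted among the 31 by a mean of 6.62, but its median, 6.52, lay under that level. Its mean rests on the transgene-only mouse P_1, at 8.40, with at most 6.63 in the other mice. Among the 31, the SD over 22 mice had a median of 0.27 and ran from 0.093 to 0.82. Dcn, the gene of the collagen-binding proteoglycan decorin, varied most, at 10.20 ± 0.82 (SD, n = 22). Acta2, smooth muscle actin, followed at 10.61 ± 0.65, Mgp, matrix Gla protein, at 8.02 ± 0.60 and Col5a1, a chain of fibrillar type V collagen, at 8.27 ± 0.53. Eng, the endothelial TGF-beta co-receptor endoglin, was steady at 8.10 ± 0.18.

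**Figure D1:**
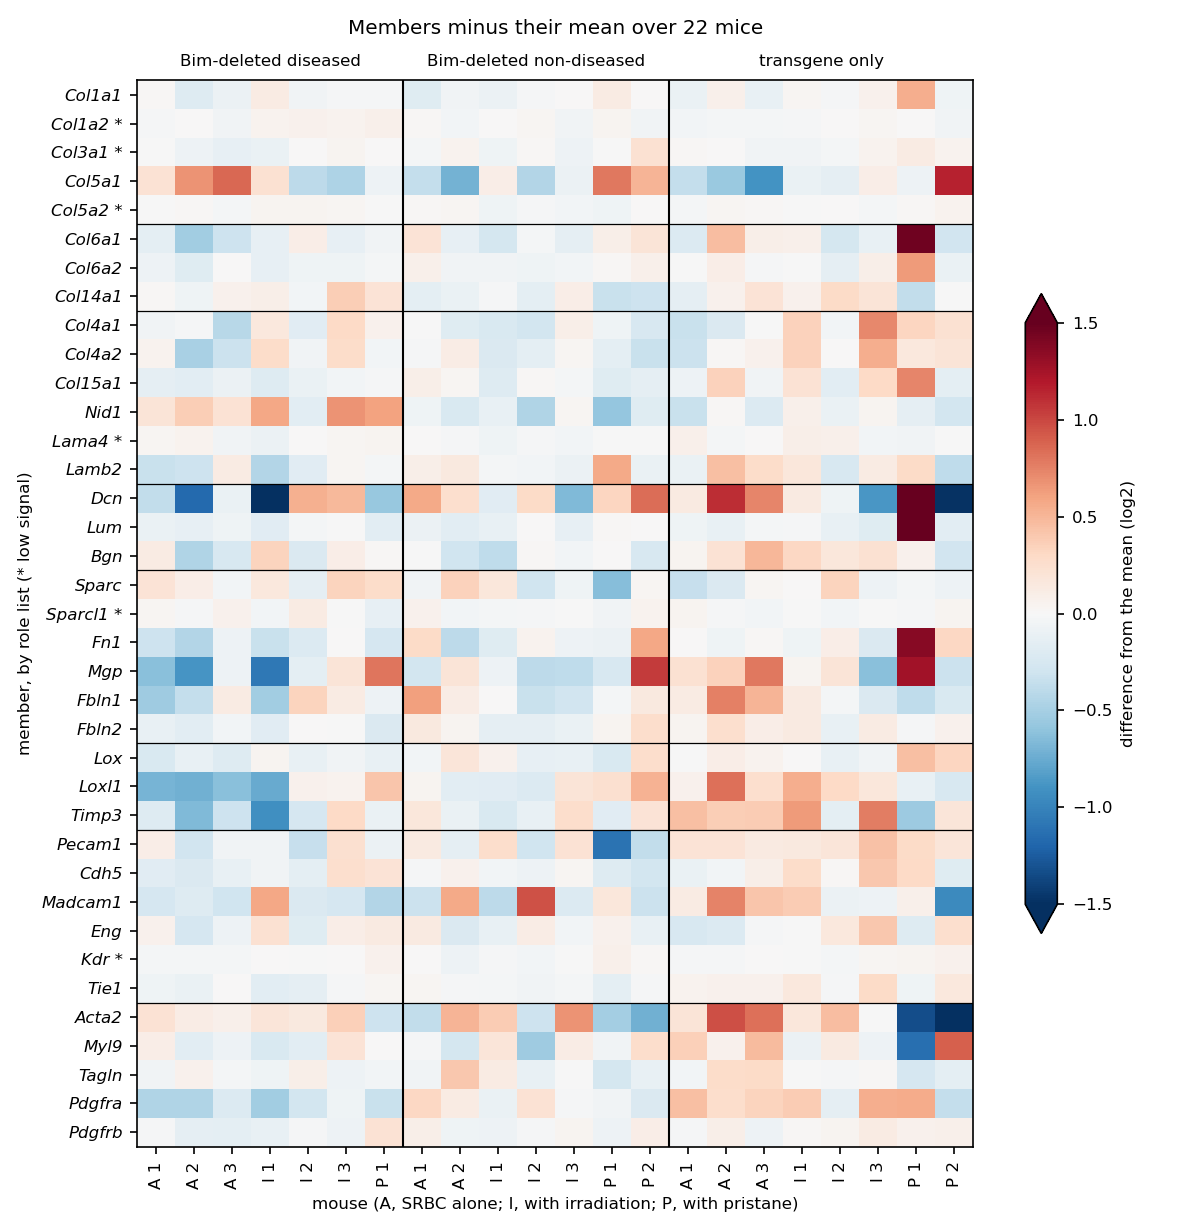
Level of each of the 37 genes in each of the 22 mice minus the mean of that gene over the 22 mice (log2; colour scale ends at 1.5 in either direction; an asterisk marks low signal). Columns are mice by group and stimulus, rows are genes by role, and the transgene-only mouse P_1 shows the strongest positive colours, in Lum, Col6a1, Dcn and Fn1.

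Disease was addressed first by comparing spleens of Bim-deleted mice with and without it. Of the 37 genes 1 rose, Nid1, and none fell. Over all 20463 features tested 1.83% were called in this comparison (limma, Benjamini-Hochberg adjusted p under 0.05), 1.16% higher and 0.665% lower. With 1 gene of 37 the share among the stroma and matrix genes is near that background. By direction alone 17 of the genes were higher and 20 lower in diseased spleens, with a median difference of -0.01 on the log2 scale, against 0.00 over all features. The split turned in 1 setting: with the erythroid score as a covariate 19 were higher and 18 lower, with a median of 0.0002.

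Nid1 encodes nidogen-1, the basement membrane protein that links laminin to type IV collagen. In the 7 diseased mice its level ran from 7.81 over a median of 8.34 to 8.64. In the 7 non-diseased mice the lowest, median and highest levels were 7.39, 7.78 and 8.001, and in the 8 transgene-only mice 7.63, 7.85 and 8.04. The groups overlapped through 1 mouse: 6 of 7 diseased mice lay above every mouse of both other groups, and only diseased I_2, at 7.81, lay among them. Complete separation of diseased from non-diseased mice was seen for 0.445% of all features, and from transgene-only mice for 1.06%. Nid1 is not among these features. The share of features with 6 of 7 diseased mice apart is not given here, so the Nid1 pattern is not set against a background. The difference between diseased and non-diseased was 0.58 (SE 0.12, 95% interval 0.34 to 0.83), 1.498-fold, with limma's adjusted p = 0.0141. Against transgene-only mice it was 0.47 (SE 0.11), 1.38-fold, with adjusted p = 0.0191, and 0.47 without the transgene-only mouse P_1 (adjusted p = 0.0299). These comparisons share the diseased mice.

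The higher Nid1 level was seen under each stimulus. Diseased minus non-diseased was 0.41 under SRBC alone (3 against 2 mice), 0.54 with irradiation (3 against 3) and 0.99 with pristane (1 against 2). Leaving out any 1 of the 22 mice moved the pooled value only between 0.52 and 0.67. It lost the threshold when only these 2 groups were fitted (0.58, adjusted p = 0.0646), when the 5 pristane mice were left out (0.48, adjusted p = 0.0520) and when the probes of the gene were averaged (0.30, adjusted p = 0.0512). The other Nid1 probe, dimmer at a mean of 6.66, did not show the rise (0.03 higher, adjusted p = 0.915).

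Markers of blood cells differed between the groups as well. The erythroid mean level ran from 10.50 to 11.71 in diseased and from 9.41 to 11.67 in non-diseased spleens, and the T cell mean level from 8.06 to 9.43 and from 8.60 to 9.95. With the erythroid score as a covariate Nid1 stayed 0.59 higher (adjusted p = 0.0152). Xist, which is transcribed from the inactive X chromosome, averaged 7.93 ± 0.80 (median 7.99) in diseased and 6.95 ± 0.85 (median 6.48) in non-diseased mice. Eif2s3y, a gene of the Y chromosome, went the other way, with medians of 6.46 and 7.96. By these levels the groups may hold different shares of females and males. Sex is not given in the labels, and sex and disease cannot be fully told apart here. With the Xist level as a covariate the Nid1 difference was 0.52 (limma's adjusted p = 0.0481).

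**Figure D2:**
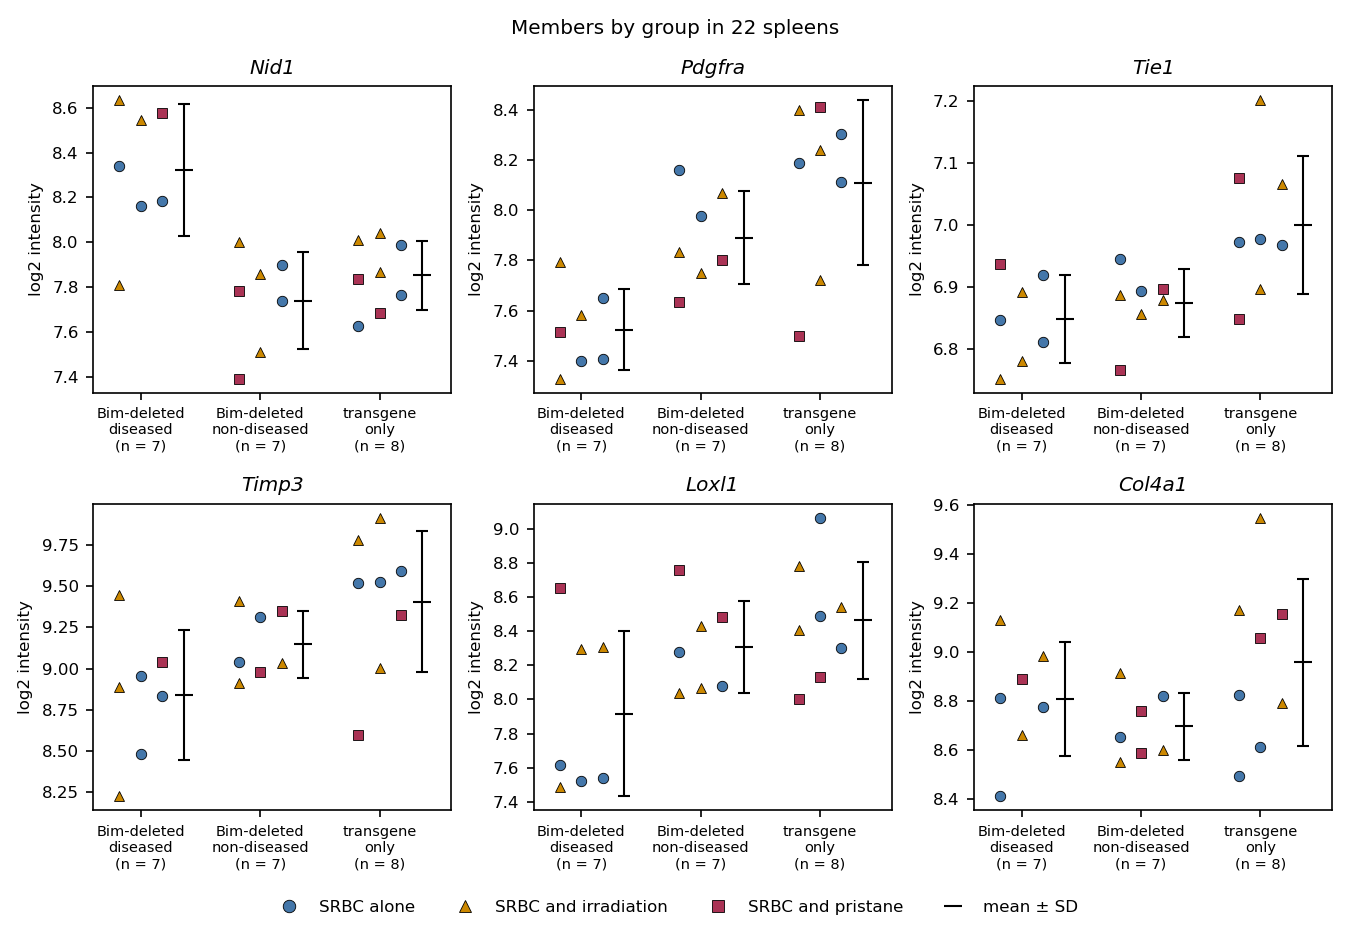
Log2 intensity of Nid1, Pdgfra, Tie1, Timp3, Loxl1 and Col4a1 in each mouse by group (symbols give the stimulus; bars are mean ± SD; n = 7, 7 and 8). Nid1 is high in 6 of 7 diseased mice, and Pdgfra is low in diseased mice, 5 of 7 below every non-diseased mouse.

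None of the other basement membrane genes passed the test. Col4a1 and Col4a2 encode the chains that together form the common type IV collagen. Col4a1 ran from 8.41 over 8.81 to 9.13 in diseased, from 8.55 over 8.65 to 8.91 in non-diseased and from 8.49 over 8.94 to 9.55 in transgene-only mice. The 3 ranges overlapped. Lamb2, a laminin chain, averaged 7.04 ± 0.21 in diseased and 7.28 ± 0.24 in non-diseased mice, a difference of -0.24 with an adjusted p of 0.408. Of the 6 genes of this role 4 were higher and 2 lower in diseased than in non-diseased mice, and against transgene-only mice 5 of 6 were lower.

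Col4a1 and Col4a2 start close together on opposite strands of chromosome 8. The sequence from the annotated start of Col4a2 to that of Col4a1 is shown because the levels of these genes moved together. In RefSeq's annotation of GRCm38.p6 the starts are 21 bases apart, at chr8:11312805-11312826. By these coordinates the genes overlap over the stretch shown. The forward strand is given, 5′ to 3′, with capitals for the first base of Col4a2, read forward, and of Col4a1, read on the other strand.
Col4a2 and Col4a1 starts: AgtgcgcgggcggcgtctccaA

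Over the 22 mice the levels of Col4a1 and Col4a2 correlated at Pearson r = 0.82 (permutation p = 3e-05, adjusted p = 1e-04 over 10 pairs of genes) and Spearman rho = 0.79 (permutation, adjusted p = 4e-04). After removal of group and stimulus means r was 0.75, and without the 2 mice farthest from the median of Col4a1 it was 0.72. Within the 9 irradiated mice r was 0.97, and within the 8 mice given SRBC alone it was 0.34. Col6a1 and Col6a2, chains of the microfibril collagen type VI, had r = 0.92 and rho = 0.64 (permutation, adjusted p = 1e-04 and 0.0047). Without the transgene-only mouse P_1, which held the highest level of both, r fell to 0.71 (adjusted p = 0.00125 by permutation), so the height of the first value rests on that mouse. Within stimuli it was 0.84 for SRBC alone and 0.27 for irradiation.

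Of the other pairs, Acta2 and Tagln, genes of the smooth muscle contractile apparatus, had r = 0.71 and rho = 0.70 (permutation, adjusted p = 7e-04 and 0.0013). After removal of group and stimulus means r was 0.56 for this pair, and it was 0.78 within SRBC alone and 0.31 within irradiation. Pecam1 and Cdh5, junction proteins of endothelium, had r = 0.55 and rho = 0.62 (permutation, adjusted p = 0.0137 and 0.00522), with a residual r of 0.42 and 0.30 within SRBC alone and 0.73 within irradiation. For the proteoglycan genes Dcn and Lum r was 0.54 and rho 0.74 (permutation, adjusted p = 1e-04 and 0.001). However, Lum lay between 6.43 and 6.63, near or under the low-signal level, in all mice except the transgene-only mouse P_1, at 8.40. The residual r of this pair was 0.59, with 0.29 within SRBC alone and 0.89 within irradiation. Without that mouse r was 0.66 for Acta2 with Tagln, 0.53 for Pecam1 with Cdh5 and 0.69 for Dcn with Lum, all with a permutation p past the adjusted threshold. The remaining 5 pairs did not pass the threshold. They include Col5a1 with Col5a2, at r = -0.22 (permutation, adjusted p = 0.371), and Col1a1 with Col1a2, at r = 0.16 (permutation, adjusted p = 0.525), pairs whose second gene had a low signal.

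**Figure D3:**
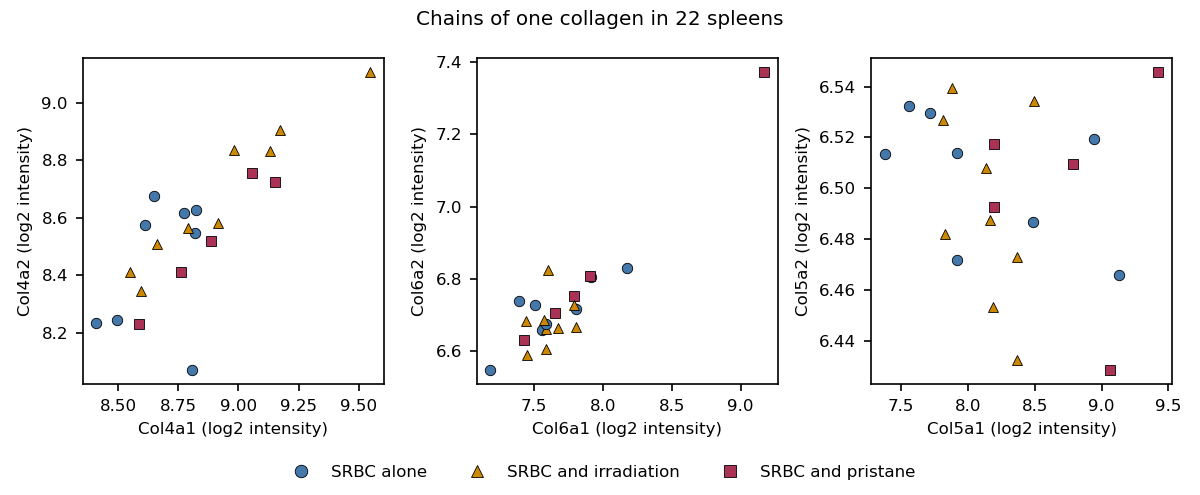
Log2 intensity of the collagen chain pairs Col4a1 and Col4a2, Col6a1 and Col6a2, and Col5a1 and Col5a2, 1 point per mouse (22 mice). The type IV pair spreads along a line (r = 0.82), the type VI pair has 1 transgene-only mouse far from the rest, and the type V pair shows no such line (r = -0.22).

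Fibrillar, type VI and fibril-associated collagens showed no change with disease that passed the test. Col5a1 had a median of 8.49 in diseased mice (7.81 to 9.13), 8.19 in non-diseased mice (7.56 to 9.06) and 8.15 in transgene-only mice (7.38 to 9.43), with wide overlap. Col14a1, a collagen that sits on fibril surfaces, had a median of 7.54 in diseased (7.41 to 7.85), 7.33 in non-diseased (7.14 to 7.57) and 7.54 in transgene-only mice (7.11 to 7.76). Its difference between diseased and non-diseased was 0.23 (SE 0.09) with limma's adjusted p = 0.230. Col6a1 ran from 7.19 to 7.81 in diseased, from 7.45 to 7.92 in non-diseased and from 7.43 to 9.17 in transgene-only mice, whose highest value belonged to P_1. Col5a2 differed by 0.03 between diseased and non-diseased (adjusted p = 0.498), at a low signal.

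The proteoglycans and glycoproteins were likewise without a called member. Bgn, biglycan, a small proteoglycan bound to collagen, had a median of 11.79 in diseased (11.32 to 12.10), 11.73 in non-diseased (11.39 to 11.79) and 11.97 in transgene-only mice (11.49 to 12.27). Dcn had a median of 9.83 in diseased mice (8.59 to 10.74) and 10.49 in non-diseased mice (9.54 to 11.04), and its difference of -0.60 had a 95% interval from -1.48 to 0.27. In transgene-only mice Dcn spread most, from 8.72 over 10.34 to 11.86, the highest being P_1. Sparc, a glycoprotein that binds collagen, had medians of 9.89, 9.69 and 9.69 in the 3 groups in the same order. Fbln2, an elastic fibre-associated fibulin, had medians of 6.70, 6.85 and 6.90.

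The comparison of diseased mice with transgene-only mice combines the Bim deletion in B cells with disease. Of the 37 genes 1 rose, Nid1, and 2 fell, Pdgfra and Tie1. Over all features 5.22% were called in this comparison, 2.24% higher and 2.98% lower, so the share among the stroma and matrix genes, 3 of 37, is near the background. Direction was less even: 29 of the 37 genes were lower and 8 higher in diseased mice, with a median difference of -0.15, where over all features 10638 were lower and 9825 higher with a median of 0.00. When the transgene-only mouse P_1 was left out 30 of 37 were lower, with a median of -0.12. With the erythroid score as a covariate 29 were still lower and the median shrank to -0.07. That score was -3.67 in the transgene-only mouse P_1 and at least -1.82 in the other mice. No fit with this covariate, here or in the other comparisons, left that mouse out. In these whole-spleen RNAs the share of stromal cells among all cells and the RNA per stromal cell cannot be told apart. The cause of this direction was not tested.

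**Figure D4:**
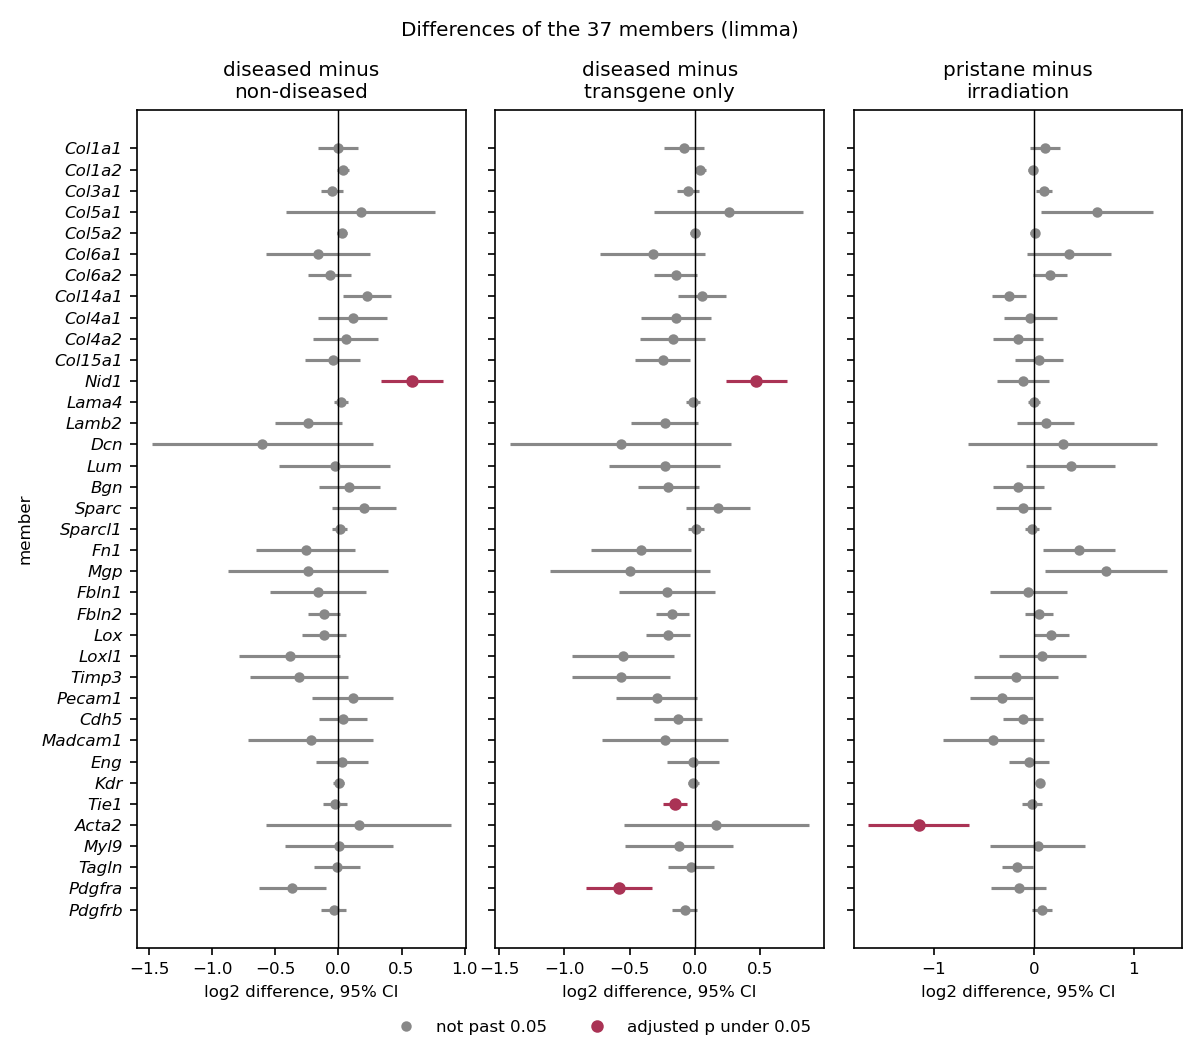
Difference in log2 intensity of each of the 37 genes with its 95% interval (limma) for diseased minus non-diseased, diseased minus transgene only, and pristane minus irradiation, with red for an adjusted p under 0.05. Red marks 1, 3 and 1 genes, and most points of the middle comparison lie below 0.

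Pdgfra, the receptor for platelet-derived growth factor that marks fibroblasts and other mesenchymal cells, had its lowest mean in diseased mice. The lowest, median and highest levels were 7.33, 7.51 and 7.79 in diseased, 7.64, 7.84 and 8.16 in non-diseased and 7.50, 8.21 and 8.41 in transgene-only mice. Of 7 diseased mice 5 lay below every non-diseased mouse and 3 below every transgene-only mouse, since the transgene-only mouse P_2 was itself low at 7.50. Diseased minus transgene only was -0.58 (SE 0.12, 95% interval -0.84 to -0.33), 0.667-fold, with limma's adjusted p = 0.00845. The call was kept under all 34 alternatives tried, over which the difference ran from -0.67 without the transgene-only mouse P_2 to -0.28 with the mean of the gene's probes, and without the transgene-only mouse P_1 the difference was -0.54 (adjusted p = 0.0167). Within stimuli it was -0.72 for SRBC alone, -0.55 for irradiation and -0.44 for pristane. Diseased minus non-diseased was -0.37 with an adjusted p of 0.152, and it passed only without the 5 pristane mice (-0.43, adjusted p = 0.0477). A dimmer Pdgfra probe, at a mean of 6.60 and so near background, differed by 0.02 between diseased and transgene-only mice.

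Tie1, a receptor tyrosine kinase of endothelium, fell by a small amount. Its level had a median of 6.85 in diseased (6.75 to 6.94), 6.89 in non-diseased (6.77 to 6.95) and 6.98 in transgene-only mice (6.85 to 7.20), and 4 of 7 diseased mice lay below every transgene-only mouse. The difference was -0.15 (SE 0.04), 0.899-fold, with limma's adjusted p = 0.0426, and 16 of 34 alternatives ended the call. Without the transgene-only mouse P_1 it was -0.17 (adjusted p = 0.0201). The other 5 endothelial genes were also lower in diseased than in transgene-only mice, with a median of -0.13 and no adjusted p under 0.284. Of these, Eng and Kdr hardly differed, with means of 8.10 against 8.12 and, at low signal, 6.58 against 6.60. Pecam1 had a median of 8.57 in diseased (8.28 to 8.86), 8.49 in non-diseased (7.52 to 8.89) and 8.81 in transgene-only mice (8.76 to 9.07). Madcam1, the addressin on which lymphocytes home and which lines the marginal sinus of the spleen, had medians of 7.52, 7.56 and 7.87, with ranges that overlapped.

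Timp3, a matrix-bound protease inhibitor, and the collagen and elastin cross-linking enzyme genes Lox and Loxl1 were all lower in diseased than in transgene-only mice, with none past the threshold. Timp3 had a median of 8.89 in diseased (8.22 to 9.44), 9.04 in non-diseased (8.91 to 9.41) and 9.52 in transgene-only mice (8.60 to 9.91). Its difference was -0.57 with an adjusted p of 0.0718, and without the transgene-only mouse P_1, the lowest of its group, it was -0.68 with an adjusted p of 0.0191. Loxl1 had medians of 7.62 (7.49 to 8.65), 8.28 (8.04 to 8.76) and 8.45 (7.9997 to 9.06), and 4 of 7 diseased mice lay below every other mouse of both groups. The Loxl1 difference from transgene-only mice was -0.55 with an adjusted p of 0.0976. Without P_1 of that group it was -0.60 (adjusted p = 0.0884), and without P_2 it was -0.61 and passed (adjusted p = 0.0454). Among mice given SRBC alone it was -1.06, among irradiated mice -0.55, and among pristane mice, with 1 diseased, 0.59.

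Erythroid markers ran higher and T cell markers lower in diseased than in transgene-only spleens. The median of the erythroid mean level was 11.44 against 10.86, and that of the T cell mean level 9.04 against 9.85, with ranges that overlapped. With the erythroid score as a covariate the Nid1 difference from transgene-only mice was 0.48 (adjusted p = 0.0348) and that of Tie1 was -0.18 (adjusted p = 0.0257). This fit holds the transgene-only mouse P_1, whose erythroid score was far the lowest. The part of T cell content in these differences was not tested.

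Non-diseased Bim-deleted mice and transgene-only mice did not differ in any gene at the threshold, nor did any of the 20463 features (0 called, 0% of features). By unadjusted limma p under 0.05 there were 3 of 37 genes, against 3.32% of all features. Of the 37 genes 30 were lower in the non-diseased mice, with a median of -0.08 against 0.00 over all features, and without the transgene-only mouse P_1 28 were lower with a median of -0.05. With the erythroid score as a covariate the median was also -0.05. The Pecam1 difference was -0.41, and -0.25 without the non-diseased mouse P_1, the lowest of its group at 7.52. The mean over the 37 genes of level minus gene mean was -0.07 ± 0.09 (SD, n = 7) in diseased, -0.03 ± 0.05 (n = 7) in non-diseased and 0.08 ± 0.10 (n = 8) in transgene-only mice, a description with no test.

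The stimuli were compared with group as a covariate. Irradiation added to SRBC called none of the 37 genes and none of all features (0%), and 4 of 37 had an unadjusted p under 0.05 against 4.68% of features. Type IV collagen was 0.27 (Col4a1) and 0.24 (Col4a2) higher with irradiation, with adjusted p of 0.980 and 0.991. Within groups the Col4a1 difference was 0.26 in diseased, -0.05 in non-diseased and 0.53 in transgene-only mice.

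Pristane went with a lower level of smooth muscle actin. Acta2 read 10.29 in the diseased mouse, 10.10 and 9.89 in the 2 non-diseased mice, and 9.28 and 8.87 in the 2 transgene-only mice given pristane. With irradiation the lowest, median and highest levels were 10.30, 10.79 and 11.28, and with SRBC alone they were 10.24, 10.82 and 11.58. All 5 pristane mice lay below all 9 irradiated mice and 4 of 5 lay below every mouse given SRBC alone; such separation from irradiated mice was seen for 0.337% of all features. Pristane minus irradiation was -1.15 (SE 0.24, 95% interval -1.65 to -0.65), 0.450-fold, with limma's adjusted p = 0.04996, at the edge of the threshold. Acta2 was the only 1 of 37 genes called, where 0.279% of all features were (0.191% higher, 0.0880% lower). Against SRBC alone the difference was of like size, -1.24 (SE 0.25), with an adjusted p of 0.0642, and 0 of 37 genes and 0.0147% of features were called (0.00977% higher, 0.00489% lower).

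The Acta2 call was lost under 24 of 31 alternatives while its direction held in all of them. Without the transgene-only mouse P_1 pristane minus irradiation was -1.05 (adjusted p = 0.0195), and pristane minus SRBC alone -1.14 (adjusted p = 0.0200). Without the transgene-only mouse P_2, which had the lowest Acta2 of all, they were -0.94 (adjusted p = 0.144) and -1.02 (adjusted p = 0.206). The size of the difference between pristane and SRBC alone varied between groups, at -0.45 in diseased (1 against 3 mice), -0.68 in non-diseased (2 against 2) and -2.20 in transgene-only mice (2 against 3), where P_1 alone gave -1.997 and P_2 alone -2.41. The contrast of non-diseased with transgene-only mice in this effect was 1.52 (SE 0.43) with an adjusted p of 0.857. For Acta2 this contrast was 1.73 without P_1 (adjusted p = 0.366) and 1.32 without P_2 (adjusted p = 0.214). All 4 bright Acta2 probes were lower with pristane than with irradiation, with differences of -1.15, -0.81, -0.65 and -0.48.

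Other measures moved with pristane. All 5 pristane mice had high Xist, from 7.82 to 8.51, whereas Xist ran from 6.40 to 8.73 with SRBC alone and from 6.39 to 8.97 with irradiation. The sex of these mice is not given, and sex and pristane cannot be fully told apart here. With Xist as a covariate pristane minus irradiation for Acta2 was -1.01 with an adjusted p of 0.436, and no gene was called. Pristane spleens also spread widely in blood cell markers: the neutrophil mean level ran from 7.17 to 12.28 with a median of 11.94, against medians of 9.85 with SRBC alone and 10.26 with irradiation. The B cell mean level had a median of 8.96, against 9.59 and 9.52. The part of neutrophil and B cell content in the Acta2 difference was not tested.

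**Figure D5:**
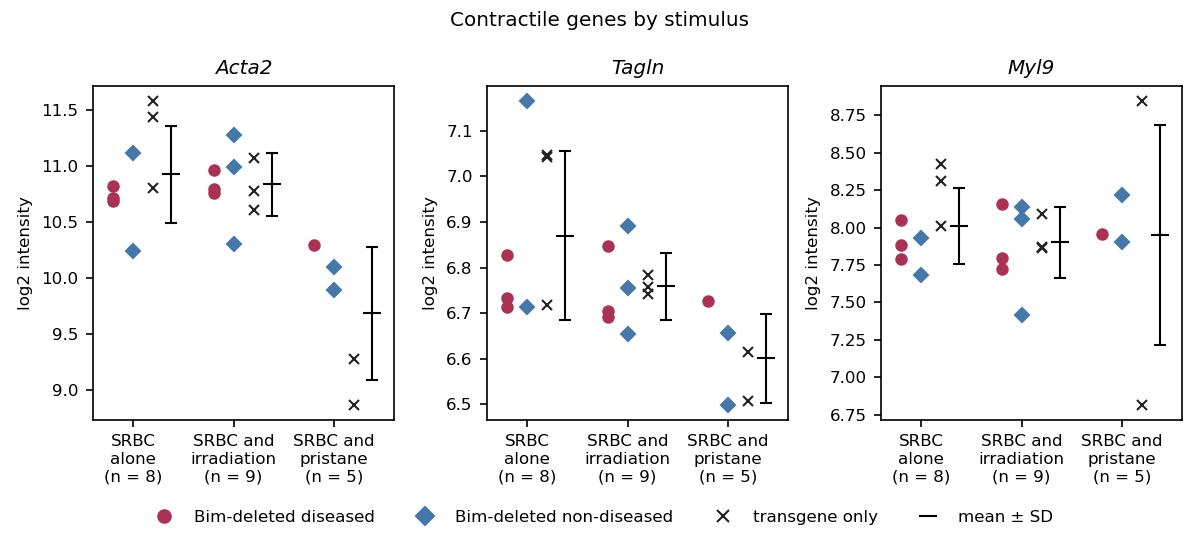
Log2 intensity of Acta2, Tagln and Myl9 in each mouse by stimulus (8 mice with SRBC alone, 9 with irradiation, 5 with pristane; symbols give the group; bars are mean ± SD). Acta2 is between 8.87 and 10.29 in the pristane mice, below all irradiated mice, while Myl9 overlaps throughout.

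The other contractile genes gave smaller or no differences. Tagln, the actin-binding protein transgelin, read 6.73 in the diseased, 6.50 and 6.66 in the non-diseased and 6.51 and 6.61 in the transgene-only mice given pristane, against medians of 6.78 with SRBC alone and 6.76 with irradiation. The pristane values were low, but the diseased mouse lay within the ranges of both other stimuli, and pristane minus SRBC alone was -0.28 (SE 0.08) with an adjusted p of 0.135. Myl9, a smooth muscle myosin light chain, did not share the pattern: in pristane mice it spread from 6.82 in the transgene-only mouse P_1 to 8.84 in the transgene-only mouse P_2. Kdr, the main VEGF receptor of endothelium, was higher in all 5 pristane mice (6.61 to 6.66) than in all mice given SRBC alone (6.51 to 6.59), a separation seen for 0.327% of features, but at low signal and without passing the test (0.08 higher, adjusted p = 0.0740). Of the matrix genes, Col5a1 was 0.65 higher with pristane than with SRBC alone (adjusted p = 0.268) and Mgp 0.72 higher than with irradiation (adjusted p = 0.212). Leaving out the transgene-only mouse P_1, the highest in Mgp, gave 0.57 (adjusted p = 0.271).

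Genes that neighbour these in function were read from 9 further lists, of collagen synthesis, other collagens, other basement membrane, elastic fibre, protease, endothelial, contractile, growth factor and lymphoid stroma genes. Of 134 listed genes 118 were measured. Between diseased and non-diseased mice none of the 118 passed, the lowest adjusted p being 0.108 for Ltbp3, which binds latent TGF-beta in the matrix, at -0.26, where 1.83% of all features were called. Against transgene-only mice 6 of 118 fell and none rose, with 2.98% of all features called lower and 5.22% either way, so this count too is near the background. By direction 99 of the 118 were lower, where the split over all features in this comparison was near even. This count of directions was not tested. Without the transgene-only mouse P_1 5 of 118 fell, and without P_2 13 fell. The shares of all features above are for all mice, and those of these fits are not given here. These counts are therefore not set against a background. Those that fell with all mice were Hspg2, the basement membrane proteoglycan perlecan (8.13 against 8.76, difference -0.63, adjusted p = 0.0180), Col16a1, a fibril-associated collagen (-0.39, adjusted p = 0.0353), Ltbp3 (-0.33, adjusted p = 0.0153), Thbs2, the matricellular protein thrombospondin-2 (-0.41, adjusted p = 0.0461), Tgfb1, the TGF-beta1 cytokine (-0.48, adjusted p = 0.0304), and Il7, a cytokine of lymphoid stroma (-0.57, adjusted p = 0.0313). Nid1 rose and Hspg2 fell in that same comparison, although both proteins belong to basement membranes. Without P_1 Thbs2 lost the threshold (-0.41, adjusted p = 0.0626), and the adjusted p of Hspg2, Col16a1, Ltbp3, Tgfb1 and Il7 ran from 0.0234 to 0.0472. Between pristane and irradiation Timp1, a soluble protease inhibitor, was 1.03 higher and Tgfbr2, the signalling receptor of TGF-beta, 0.71 lower, both at the edge of the threshold (adjusted p = 0.04996), among 118 genes, where 0.279% of all features were called. That count of 2 became 8 higher and 5 lower without the transgene-only mouse P_1. Without P_2 it was 0, where Timp1 was 1.13 higher (limma's adjusted p = 0.0742) and Tgfbr2 differed by -0.61 (adjusted p = 0.144). The share of 0.279% is for all mice, and that without P_1 or P_2 is not given here, so these counts too lack a background.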

How the data were processed

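Total RNA of whole frozen spleen was isolated with Trizol and a Qiagen AllPrep kit and hybridised to Illumina 1-colour bead arrays, per the labels' protocols. The deposited values are log2 intensities per probe. Sorted arrays differ by at most 0.00142, as after quantile normalization; the base of the logarithm was read from the values (maximum 14.40), and how background was corrected, and by which software, is not given in the sources used here. A table of unnormalized values was not used, because its 44 columns match no mouse.

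Of 45281 probes, 34885 had 1 gene, 18 several and 10378 none. Probes above the 40th percentile (6.52) in at least 7 of 22 arrays were kept (30013), and 1 probe per gene, the brightest, gave 20463 features, of which 14500 are named. A gene was called low in signal when its mean was under the 60th percentile. Of the 38 genes 22 had more than 1 probe. Sequences and gene names follow RefSeq, GRCm38.p6.

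Groups were compared in 1 limma model (limma 3.58.1, R 4.3.3), stimuli in an additive model with group, and interactions over 9 group and stimulus means, adjusted by Benjamini-Hochberg over all features at 0.05. Both interaction contrasts called none of the 37 genes, and none of all features (5 and 4 of 37 genes had an unadjusted limma p under 0.05, against 4.70% and 5.38% of features). Correlations used 100000 permutations, two-sided. The procedure was tested on simulated data. Each array is a mouse in the labels, and the number of arrays limits the precision. The titles do not name same-numbered mice of different groups as pairs, and these mice did not deviate together in every case. Numbers were therefore not taken as pairs.

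The genes and all lists were chosen with earlier results of these data known. Values are given for every gene past the threshold, for the brightest gene of each of 8 role lists and for the one with the smallest p between diseased and non-diseased, and for neighbouring genes past the threshold. Alternatives covered the filter, the probe rule, array weights, the samples fitted, erythroid content, the replicate number and each mouse left out; the level of Xist as a covariate, correlations without the transgene-only mouse P_1, and neighbouring genes without that mouse or P_2, were added after seeing the data.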

Additional observations from a re-analysis of the deposited data

Results flagged for a closer look

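In groups of 7 or 8 mice, 11 of 111 gene and group combinations held 1 mouse set far apart from the rest by Dixon's criterion, where chance gives about 1 in 20. The transgene-only mouse P_1 accounted for 5 of the 11. It read 7.42 for Col1a1 (6.77 to 6.96 in the rest of its group), 9.17 for Col6a1 (7.43 to 8.18), 7.37 for Col6a2 (6.59 to 6.83), 8.40 for Lum (6.43 to 6.60) and 8.57 for Fn1 (6.98 to 7.51).

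Among non-diseased mice, P_1 read 7.77 for Lamb2 (7.10 to 7.35 in the others) and P_2 read 9.07 for Mgp (7.62 to 8.21). The diseased mouse I_1 read 8.34 for Madcam1, against 7.33 to 7.58. The diseased mouse P_1, the only diseased mouse given pristane, read 6.65 for Kdr (6.553 to 6.593), 10.29 for Acta2 (10.69 to 10.96) and 7.06 for Pdgfrb, a receptor of mural cells (6.70 to 6.83).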

How the results depend on the processing

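The share of all features called in each alternative is not given here. A change in the counts below can therefore not be read as a result about these genes in particular. The count of called genes between diseased and non-diseased mice was 1 in 32 of 34 alternatives. It was 0 with the mean of all probes and with only the 2 groups fitted. Against transgene-only mice it was 3, 5 with array weights or without the 5 pristane mice, 2 with no filter, with trend and robust settings and with the mean of all probes, and 2 to 5 on leaving out 1 mouse, with 5 without the diseased mouse P_1. Between non-diseased and transgene-only mice it was 0 in all 34 alternatives, and for irradiation against SRBC alone 0 in all 32. For pristane against SRBC alone it was 0, and 1 with the 60th percentile filter, 1 with the mean of all probes, 2 with the erythroid covariate, and 0 to 3 on leaving out 1 mouse (3 without the diseased mouse P_1, 2 without the transgene-only mouse P_1). For pristane against irradiation it was 1, and 0 with no filter, with every probe on its own, with only these 2 stimuli and with Xist, 3 with the erythroid covariate, and 0 to 2 on leaving out 1 mouse (2 without the diseased or the transgene-only mouse P_1). The contrast of the pristane effect between non-diseased and transgene-only mice gave 0, and 0 to 4 on leaving out 1 mouse (4 without the transgene-only mouse P_2, 1 without the non-diseased mouse P_2). With the replicate block the counts were 1, 0 and 2 for the 3 group comparisons, and the Tie1 difference was -0.15 at limma's adjusted p of 0.0594. Deviations of same-numbered mice from their group means correlated from -0.35 to 0.66. Such mice also share a stimulus, so this range cannot show whether the numbers mark pairs. The differences of Nid1, Pdgfra, Tie1, Timp3, Loxl1, Acta2, Tagln and Kdr given in the comparisons above kept their direction in every alternative run. The near-even split of all 37 genes did turn: the median of pristane minus SRBC alone went from -0.0008 to 0.0083 with array weights, and that of irradiation minus SRBC alone from 0.0008 to -0.0074 with Xist. The cause of these moves was not tested. Genes of low signal limit what small differences can show.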
